A study of Mus musculus with 401 samples.

Results

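Cumulus cells of young and old mice were compared in the first set of samples, which gave 31 of the 401 libraries of the series, 15 from young and 16 from old mice. They were chosen by their labels alone, as the count columns of the first set that name a young or an old mouse and cumulus cells. Each library was made from the pool of cumulus cells around 1 oocyte of a fully grown follicle. All the donors were B6D2F1 (C57BL/6 x DBA/2) females fed ad libitum, young at 2 months and old at 14 months, and both ages had been injected with eCG or HyperOva for hyperovulation 48 h before the ovaries were taken into a medium with IBMX, which keeps oocytes from resuming meiosis. The oocytes of the same complexes, middle (9 months) and calorie-restricted mice, and a second set with mice of 2, 4, 9 or 14 months make up the rest of the series. That set also holds 2-month mice labelled as not hyperovulated, which enter none of the values below. The labels name 2 young mice, Young1 (3 libraries) and Young2 (12 libraries), and join the first 2 old mice under 1 label, Old1_2 (11 libraries), beside Old3 (5 libraries). The comparison therefore rests on 2 young and 3 old mice, and its p-values measure the spread between complexes of these mice rather than between mice.

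Cumulus cells are the granulosa cells that enclose the oocyte and feed it through gap junctions. Before the ovulatory surge they divide and hold the oocyte in meiotic arrest, and after it the EGF-like signal sent by the outer granulosa cells makes them expand in a matrix of hyaluronan. Signals of this kind, and also the handling of a tissue, are answered within minutes by the immediate early genes, which need no protein synthesis to be transcribed. They encode transcription factors such as the AP-1 subunits, early growth response and NR4A proteins, and also the inhibitors that switch the same signals off again.

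RamDA-seq, which copies total RNA along the whole transcript and carries no molecular identifiers, gave 986123 to 1412244 counts per young library (median 1201007) and 1051482 to 1540270 per old library (median 1288956). Expression is given below as CPM, counts divided by the TMM-normalised library size and scaled to a common size, and differences as the log2 fold change of old over young cumulus cells with its standard error and the Benjamini-Hochberg adjusted p of edgeR's quasi-likelihood test. A gene is a DEG where this adjusted p was under 5%. The 12 granulosa markers summed to 10037 to 16342 CPM in young libraries and 9947 to 15148 CPM in old ones, the largest sums of all marker lists. Of the 12, 0 were DEGs, near the 3.96% of all genes tested, and this comparison of ages does not show what the cells were. The 13 oocyte markers had medians of 2.23 and 3.86 CPM, 0.0105% and 0.0181% of what the median oocyte library held. They reached 153 CPM in 1 library of Young2, and Figla was at 0 in all old libraries. Of the 11 tested, 1 (9.09%, beside 2.19% of all genes), Zp3 (named after its value was seen), was down-regulated. Of the 10 luteal markers, 3 were higher in old cells (30%, beside 1.77% of all genes), and none of the 10 was at 0 in a whole group. Their sums were 55.1 to 411 CPM (median 102) in young and 66.4 to 1203 CPM (median 155) in old libraries. By label, the median sum was 102 CPM in Young1, 101 in Young2, 172 in Old1_2 and 78.4 in Old3. With Young1, Young2, Old1_2 or Old3 left out, 3, 0, 0 and 4 luteal markers were higher in old cells. Markers of theca (5 of 8 tested), endothelium (5 of 8), blood and immune cells (5 of 11), stroma (7 of 8) and surface epithelium (1 of 7) held 0 DEGs. With so few tested, this too is near the share of all genes. Old libraries held a count for 18025 to 19286 genes (median 18834) and young libraries for 17250 to 18919 (median 18266), and the difference of means of 631 genes was larger than the spread between libraries (two-sided permutation test, p = 6e-05). With 1 mean per mouse label it was 813 genes, and the exact permutation test over the 4 labels gave p = 0.333, the smallest it can give. Genes were counted without equalising depth, and the median depth was 1288956 counts in old and 1201007 in young libraries. The part of depth in this difference was not tested. The share of counts from mitochondrially encoded genes was 7.55% to 13.2% in young and 6.79% to 11.7% in old libraries (permutation test, p = 0.183). In pools of this kind, fewer cells of a type and less RNA per cell cannot be told apart.

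Old cumulus cells differed from young ones at 914 of 23091 genes tested, 3.96% of them. Of these DEGs, 408 (1.77% of the genes tested) were up-regulated and 506 (2.19%) were down-regulated in old cells, while 4024 genes had an unadjusted p under 0.05. Most changes were moderate. The median log2 fold change was 0.73 among the up-regulated and -0.59 among the down-regulated DEGs, beside 0.04 over all genes tested, and 171 and 130 of them changed by 1 log2 unit or more. Down-regulated DEGs were the more abundant transcripts, with a median of 49.2 CPM against 17.2 CPM for up-regulated ones, and 81.0% and 69.9% of them were protein coding, beside 61.6% of all genes tested. Among genes at 8 CPM or more, the exons of up-regulated DEGs had a median length of 6836 bases (244 genes), those of down-regulated DEGs 3631 bases (433 genes) and those of all genes 4573 bases.

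The mouse labels carried unequal weight. Both old labels lay on the same side of both young labels at 394 of the 408 up-regulated DEGs (96.6%, beside 23.99% of all genes) and at 490 of the 506 down-regulated ones (96.8%, beside 18.6%). The DEGs were chosen on the difference between these same libraries, which favours this order, so the shares are a description only. The values of all 16 old libraries lay above those of all 15 young ones at 10 genes (0.0433% of those tested), AC149090.1 and 9 genes of 1 cluster on the X chromosome described below, and the reverse held for 0 genes (0%). Without Young2, which leaves 3 young libraries, 5 up-regulated and 23 down-regulated DEGs still passed the test, and 408 and 476 of them kept their sign. Without Old1_2, 88 and 119 passed, and 359 and 506 kept their sign. Without Young1, 233 and 369 passed, and without Old3 155 and 285. With counts summed per mouse label, so that the 4 labels were the units, 81 genes passed the test, 20 higher and 61 lower, and with all cumulus groups of the first set in 1 fit 458 did.

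Many immediate early genes were down-regulated in old cumulus cells, and none was up-regulated. Of the 56 members tested on 3 lists, AP-1 subunits, other immediate early transcription factors, and feedback inhibitors of signalling, 30 were down-regulated in old cells (53.6%, beside 2.19% of all genes tested). Fos, Fosb, Jun, Sik1 and Zfp36 are named by the study from these same libraries, so their direction is not independent evidence. The median log2 fold change over the 56 was -1.01, and 50 were negative. At each of the 30 the means of both old labels lay under those of both young labels, an order that their choice on these same libraries favours. At all 30 the libraries of the groups overlapped. The 57 genes together took 3491 to 17792 CPM in young libraries (median 13079) and 1822 to 10156 CPM in old ones (median 5885). No old library exceeded the young median, and 1 young library fell under the old median. By label, the median sum was 14860 CPM in Young1, 12017 in Young2, 6356 in Old1_2 and 5415 in Old3. Abundant members weigh most in these sums, among them Fos, Egr1, Fosb and Jun, of which only Fosb was a DEG. Their means in Young2 were 2576, 1668, 1588 and 881 CPM, beside a mean sum of 11587 CPM. With Young1, Young2, Old1_2 or Old3 left out, 22, 4, 9 and 23 of the members were down-regulated, with medians of -0.93, -1.20, -1.04 and -1.04.

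**Figure D1:**
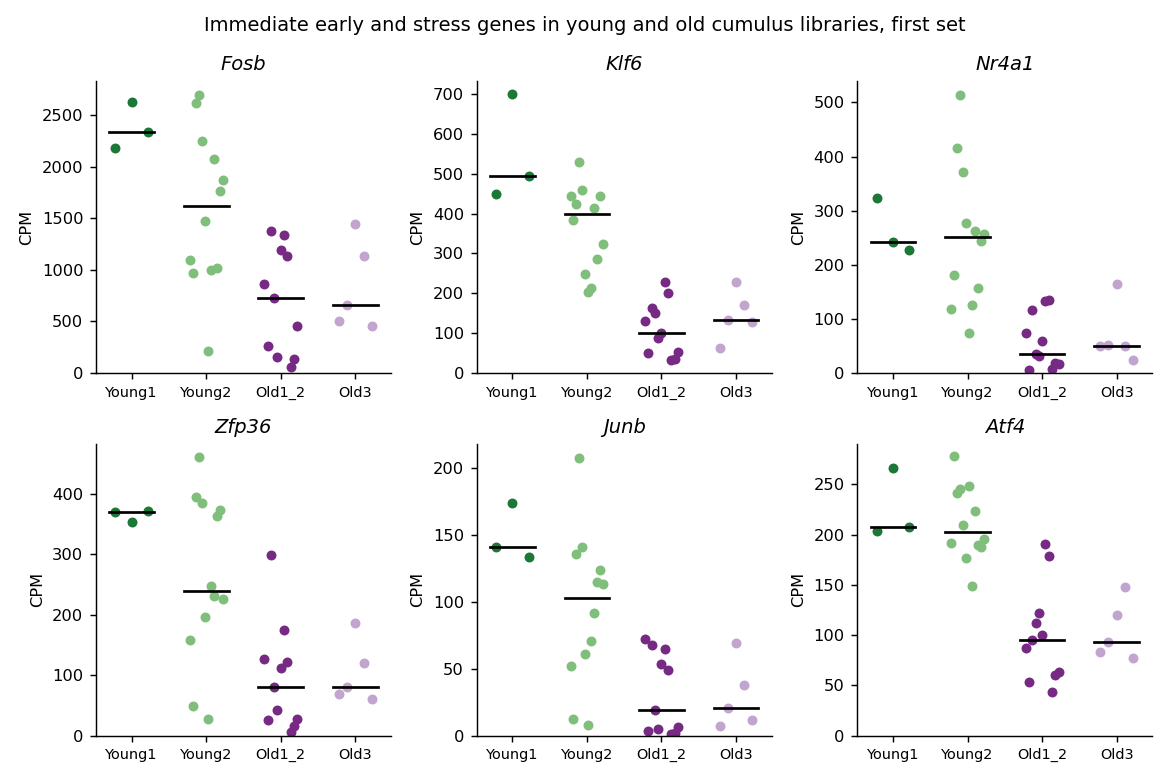
CPM of Fosb, Klf6, Nr4a1, Zfp36, Junb and Atf4 (vertical axis, 1 panel per gene) in each young and old cumulus library, by mouse label (horizontal axis); points are libraries and bars are medians. Klf6 lies at 202 CPM or more in all young libraries and at 229 CPM or less in all old ones, while Fosb, Zfp36 and Junb have some Young2 libraries at old levels.

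All 12 AP-1 subunits tested had negative log2 fold changes (median -1.15), and 7 were down-regulated (58.3%, beside 2.19% of all genes). AP-1 is a dimer of a FOS and a JUN protein that drives transcription after growth factor and stress signals. Per transcript length, Fos was the most abundant subunit named here, at a mean of 1185 RPKM in young and 543 RPKM in old cells, before Jun (287 and 167 RPKM), Fosb (273 and 120 RPKM), Fosl2 (48.03 and 19.3 RPKM) and Junb (44.7 and 13.4 RPKM). Fosb (ENSMUSG00000003545, chr7:19302696-19310051) was at 213 CPM in the lowest, 1867 in the median and 2698 in the highest young library. In old libraries it was at 57.4, 690 and 1446 CPM. The groups overlapped, although the young median lay above the highest old library, and Fosb fell by 1.23 on the log2 scale (standard error 0.33, adjusted p = 0.0268). Fosl2, the FOS relative with the slower response, went from 282, 490 and 852 CPM to 65.0, 152 and 370 CPM (log2 -1.34 ± 0.19, adjusted p = 2.87e-05). Junb went from 7.79, 114 and 208 CPM to 1.51, 19.6 and 72.1 CPM (log2 -1.80 ± 0.41, adjusted p = 0.00834). Atf3, a stress-induced partner of JUN proteins, had the lowest fold change of the list (log2 -1.81 ± 0.34, adjusted p = 0.00124), with medians of 34.97 and 7.76 CPM. The small MAF proteins Mafk (log2 -1.14) and Maff (-1.06), which lack an activation domain, fell as well. Fos and Jun missed the threshold, with log2 fold changes of -1.17 ± 0.35 (adjusted p = 0.0506) and -0.82 ± 0.25 (adjusted p = 0.0606). Each passed it in 5 of 14 alternatives, DESeq2, the likelihood ratio test of edgeR and filterByExpr among them, with adjusted p-values from 0.0113 to 0.403 for Fos and from 0.00567 to 0.332 for Jun. The list held 6, 1, 3 and 6 down-regulated genes without Young1, Young2, Old1_2 and Old3, and Fosb itself had adjusted p-values of 0.085, 0.18, 0.18 and 0.066.

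Among the other immediate early transcription factors, 19 of 19 had negative log2 fold changes (median -1.04) and 11 were down-regulated (57.9%, beside 2.19% of all genes). Klf6, a zinc finger factor (ENSMUSG00000000078, chr13:5861482-5870394), was at 202, 423 and 699 CPM in the lowest, median and highest young library and at 33.3, 130 and 229 CPM in old ones. Its ranges met only between 202 and 229 CPM, the log2 fold change was -1.72 ± 0.23 (adjusted p = 1.22e-05), and the call held without each of the 4 mouse labels, with log2 fold changes from -2.17 to -1.47. Nr4a1, an orphan nuclear receptor that gonadotropins induce in granulosa cells (ENSMUSG00000023034, chr15:101254269-101274795), was at 74.2, 245 and 514 CPM in young and 5.42, 50.02 and 164 CPM in old libraries (log2 -2.06 ± 0.33, adjusted p = 0.000169). Csrnp1, a nuclear protein induced by AXIN1 (log2 -1.87 ± 0.40), and Nr4a3, a relative of Nr4a1 (-2.02 ± 0.53), were low in both groups, with medians of 11.1 and 2.56 CPM and of 2.98 and 0 CPM. Klf2 (-1.56), Klf4 (-1.37) and Ier2 (-1.003) were down-regulated as well. Egr1, the early growth response factor, had medians of 1951 and 966 CPM and did not pass the test (log2 -1.02 ± 0.32, adjusted p = 0.0664). Leaving out Young1, Young2, Old1_2 and Old3 left 7, 2, 3 and 8 down-regulated genes on this list, and without Young2 the adjusted p of Nr4a1 was 0.077.

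Of 25 feedback inhibitors, 12 were down-regulated (48%, beside 2.19% of all genes), 19 were negative and the median log2 fold change was -0.53. Zfp36, which binds AU-rich elements and has mRNAs degraded (ENSMUSG00000044786, chr7:28376784-28380253), was at 28.2, 353 and 460 CPM in young and at 6.05, 80.7 and 299 CPM in old libraries (log2 -1.54 ± 0.35, adjusted p = 0.00897). Socs3, the inhibitor of JAK and STAT signalling (ENSMUSG00000053113, chr11:117966079-117970047), was at 1.86, 37.2 and 124 CPM and at 0, 5.85 and 36.6 CPM (log2 -2.37 ± 0.46, adjusted p = 0.00144). The 3 libraries of Young1 lay at 61.7 to 109 CPM, and the log2 fold change was -2.02 without that label. Sik1, a kinase that keeps CREB co-activators out of the nucleus, went from a median of 163 to 50.1 CPM (log2 -1.31 ± 0.28, adjusted p = 0.00386). The MAP kinase phosphatases Dusp5 (log2 -1.35), Dusp6 (-1.49) and Dusp8 (-1.81) and the nuclear IkB protein Nfkbiz (-1.36) fell, whereas Dusp1, a phosphatase of the same family, did not pass the test (medians of 99.9 and 51.4 CPM, log2 -0.46 ± 0.37, adjusted p = 0.564). The list held 9, 1, 3 and 9 down-regulated genes without Young1, Young2, Old1_2 and Old3, with adjusted p-values for Zfp36 of 0.11 and 0.10 without Young2 and Old1_2.

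Promoters were read for the 30 down-regulated immediate early genes because these genes share inducers, and 25 of them have an entry in the RefSeq promoter table of GRCm38.p6, which spans 250 bases before to 50 bases after the start of each gene. Searched on both strands were the CArG box, bound by serum response factor, and the cyclic AMP response element TGACGTCA, bound by CREB and ATF proteins. Both read the same on either strand, and no match of one overlapped a match of the other in the stretches shown. A CArG box stood in 3 of the 25 promoters (12%), beside 488 of 27025 in the table (1.81%), and a cyclic AMP response element in 4 (16%), beside 549 (2.03%). The stretches with these matches are printed 5′ to 3′ on the strand of the gene, with the matches in capitals: Zfp36 at chr7:28379252-28379311 (minus strand), Srf at chr17:46556190-46556269 (minus), Dusp5 at chr19:53529038-53529107 (plus), Btg2 at chr1:134079289-134079346 (minus), Errfi1 at chr4:150854994-150855051 (plus), Dusp8 at chr7:142095315-142095416 (minus) and Maff at chr15:79347466-79347523 (plus).
Zfp36 (CArG box): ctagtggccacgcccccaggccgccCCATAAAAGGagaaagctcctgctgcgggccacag
Srf (CArG box): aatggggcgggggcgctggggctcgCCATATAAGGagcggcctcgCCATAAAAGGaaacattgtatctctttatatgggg
Dusp5 (CArG box): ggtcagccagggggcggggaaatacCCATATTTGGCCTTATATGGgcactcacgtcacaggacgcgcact
Btg2 (cyclic AMP response element): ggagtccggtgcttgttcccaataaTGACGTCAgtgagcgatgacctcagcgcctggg
Errfi1 (cyclic AMP response element): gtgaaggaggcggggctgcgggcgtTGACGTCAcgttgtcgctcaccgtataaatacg
Dusp8 (cyclic AMP response element): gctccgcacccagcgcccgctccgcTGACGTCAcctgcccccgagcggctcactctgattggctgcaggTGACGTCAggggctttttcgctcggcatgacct
Maff (cyclic AMP response element): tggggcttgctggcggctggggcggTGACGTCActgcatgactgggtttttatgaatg
The match nearest to a start was that of Maff, 29 bases before it, and Srf, Dusp5 and Dusp8 each held 2 matches. A match describes these letters only, and factor binding was not measured.

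Targets of the Hippo pathway and of serum response factor, which respond to the tension of the actin cytoskeleton, held 4 down-regulated genes among 14 tested (28.6%, beside 2.19% of all genes, with a median log2 fold change of -0.54). Ccn1, a matricellular protein (ENSMUSG00000028195, chr3:145646976-145649981), was at 14.8, 66.6 and 233 CPM in the lowest, median and highest young library and at 0, 11.7 and 59.4 CPM in old ones (log2 -2.30 ± 0.47, adjusted p = 0.00247). Edn1, a vasoconstrictor endothelin, had medians of 14.7 and 0.189 CPM (log2 -3.38 ± 0.57, adjusted p = 0.000331). It kept its call without each label, with log2 fold changes from -5.30 to -2.97. Vcl, the focal adhesion protein vinculin (log2 -0.79), and Amotl2, an inhibitor of YAP (-1.12), fell too. Ccn2 varied from 0.835 to 650 CPM among young libraries and did not pass (log2 -2.27 ± 0.75, adjusted p = 0.0811). On this list, 3, 1, 4 and 3 genes were down-regulated without Young1, Young2, Old1_2 and Old3, and Ccn1 had an adjusted p of 0.16 without Young2.

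Circadian clock genes were lower at 5 of 18 members (27.8%, beside 2.19% of all genes, with a median log2 fold change of -0.33), each of them a repressor of the clock. Per1, a period gene that cyclic AMP also induces, was at 49.0, 86.6 and 123 CPM in young and 15.1, 40.6 and 64.8 CPM in old libraries (log2 -1.03 ± 0.16, adjusted p = 9.98e-05). Nfil3, a repressor of D-box genes (log2 -1.32), Nr1d1, which encodes REV-ERBα and represses Arntl (-0.998), and the cryptochromes Cry1 (-0.59) and Cry2 (-0.61) fell as well. The repressor Per2 did not pass the test (log2 -0.64, adjusted p = 0.165). The activator Arntl had medians of 4.34 and 3.49 CPM (log2 -0.01, adjusted p = 0.995), and Dbp, an output gene of the clock, 1.67 and 1.90 CPM. The list held 5, 0, 3 and 3 down-regulated genes without Young1, Young2, Old1_2 and Old3, and the adjusted p of Per1 was 0.077 without Young2.

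Among genes of NF-kB, interferon and cytokine signalling, 4 of 22 were down-regulated (18.2%, beside 2.19% of all genes, with a median log2 of -0.40). These were the NF-kB subunits Rel (medians of 111 and 60.5 CPM, log2 -0.94 ± 0.14, adjusted p = 2.87e-05) and Rela (-0.44 ± 0.10, adjusted p = 0.0102), the signal transducer Stat3 (-0.92 ± 0.16, adjusted p = 0.000354) and the interferon regulatory factor Irf1 (-1.20 ± 0.26, adjusted p = 0.00474). Irf1 went from 28.2, 80.8 and 261 CPM to 12.8, 32.6 and 89.5 CPM. Nfkb1, which is no DEG, was at medians of 34.1 and 33.3 CPM. Omitting Young1, Young2, Old1_2 and Old3 left 4, 1, 3 and 5 down-regulated genes.

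Of 15 SMAD targets and inhibitors, through which cumulus cells answer the GDF9 and BMP15 of the oocyte, 3 were down-regulated (20%, beside 2.19% of all genes, with a median log2 of -0.09). They were the SMAD co-repressors Skil (medians of 558 and 379 CPM, log2 -0.57 ± 0.11, adjusted p = 0.00078) and Tgif1 (289 and 202 CPM, -0.48 ± 0.09, adjusted p = 0.000725), and the Notch effector Hes1 (-0.96 ± 0.28, adjusted p = 0.0439). The direct BMP targets Id1 (log2 -0.39), Id2 (-0.51) and Id3 (0.01) and the inhibitory Smad7 (-0.00) did not pass the test. Of these members 2, 0, 1 and 3 were down-regulated without Young1, Young2, Old1_2 and Old3.

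Of 26 genes of the heat shock and unfolded protein responses, 8 were down-regulated (30.8%, beside 2.19% of all genes) and 0 up-regulated (median log2 -0.32). Of the 8, 4 belong to the branch that runs through ATF4, the transcription factor of the integrated stress response. These are Atf4, Ddit3, Ppp1r15a and Chac1. Atf4 (ENSMUSG00000042406, chr15:80255184-80257541) was at 149, 208 and 279 CPM in the lowest, median and highest young library and at 43.8, 94.1 and 190 CPM in old ones (log2 -1.07 ± 0.15, adjusted p = 2.27e-05). Its targets Ddit3, which encodes CHOP, and Ppp1r15a, which restarts translation by dephosphorylation of eIF2α, went from medians of 19.3 to 9.73 CPM (log2 -0.94 ± 0.19, adjusted p = 0.0029) and of 171 to 66.1 CPM (log2 -1.29 ± 0.20, adjusted p = 0.000113). Chac1, a glutathione-degrading enzyme that ATF4 induces, had at most 3 counts, the floor used here, in every old library. Young libraries were uneven, with lowest, median and highest values of 0, 3.47 and 5.55 CPM in Young1 and 0, 1.58 and 27.9 CPM in Young2. Pooled, with most weight on the highest of them, they stood at least 40.5-fold above 3 counts over the old group. The chaperone cofactor Dnajb1 (log2 -1.05) and the membrane protein Herpud1 of the endoplasmic reticulum (-1.04) fell, while the chaperones Hspa5 (medians of 1187 and 1008 CPM, log2 -0.21, adjusted p = 0.105) and Hspa1a (4.74 and 3.24 CPM) did not pass. Without Young1, Young2, Old1_2 and Old3 the list held 9, 0, 3 and 8 down-regulated genes, with an adjusted p for Atf4 of 0.076 without Young2.

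Among 19 targets of p53 and inhibitors of the cell cycle, 4 were down-regulated (21.1%, beside 2.19% of all genes). Another 1 was up-regulated (5.26%, beside 1.77%), and the median log2 was -0.64. Gadd45b, a stress sensor, had medians of 10.2 and 3.35 CPM (log2 -1.55 ± 0.28, adjusted p = 0.00071), and the sestrins Sesn1 and Sesn2, which restrain mTORC1, had log2 fold changes of -0.48 and -0.73. Cdkn2c, an inhibitor of CDK4 and CDK6, rose from a median of 8.01 to 16.05 CPM (log2 0.65 ± 0.18, adjusted p = 0.0371). Cdkn1a, the p21 inhibitor (log2 -0.83, adjusted p = 0.0828), and Mdm2, the ubiquitin ligase of p53 (-0.22, adjusted p = 0.126), did not pass. Of 15 BCL2 family genes, 1 was down-regulated (6.67%, beside 2.19% of all genes). This was the survival factor Mcl1 (medians of 267 and 183 CPM, log2 -0.59 ± 0.11, adjusted p = 0.000682). Its pro-apoptotic relative Bax stood at 26.96 and 25.9 CPM. Without Young2, 0 genes of both lists were down-regulated and Sesn2 changed sign (log2 0.10). Without Young1, Old1_2 and Old3, 4, 2 and 2 genes of the p53 list and 1, 0 and 1 of the BCL2 family were down-regulated, and 0 of the p53 list were up-regulated without any of the 4 labels.

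Several genes of the cumulus expansion program were near the limit of detection in both groups, and of 15 members 1 was up-regulated (6.67%, beside 1.77% of all genes) and 2 were down-regulated (13.3%, beside 2.19%), with a median log2 fold change of -0.60. Has2, the hyaluronan synthase, had medians of 5.01 and 3.87 CPM, and Ptx3, a matrix linker, 0 and 0 CPM. Ptgs2, the prostaglandin synthase, reached 19.2 CPM in young and 3.83 CPM in old libraries and did not pass (adjusted p = 0.0715). Adamts1, a protease that cleaves versican, was the abundant member that changed, from 111, 190 and 288 CPM to 22.6, 76.8 and 213 CPM (log2 -1.17 ± 0.22, adjusted p = 0.000879). Tnfaip6, a hyaluronan-binding protein, fell at medians of 1.49 and 0 CPM (adjusted p = 0.0441), and Runx2, a transcription factor of the ovulatory response, rose from a median of 2.77 to 7.31 CPM (adjusted p = 0.0258) but lost its call in 7 of 13 alternatives, each label left out among them. Without Young1, 3 genes of this list were down-regulated, without Young2 and Old1_2 0, and without Old3 1, and 0 were up-regulated without any label. Adamts1 had adjusted p-values of 0.31 and 0.077 without Young2 and Old1_2.

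Few identity and endocrine genes of granulosa cells were called. Of 26 genes of granulosa identity and hormone response, 0 were DEGs (median log2 0.10), near the 3.96% of all genes tested. In the second set, 3 of the 26 were called higher and 2 lower at 14 months. Fshr, the receptor for follicle-stimulating hormone, had medians of 146 CPM in young and 164 CPM in old libraries, Inha, the inhibin subunit, 3302 and 3076 CPM, and Foxl2, the factor that maintains granulosa fate, 35.8 and 54.5 CPM (log2 0.50, adjusted p = 0.0857). Amh varied from 2.97 to 557 CPM among young and from 13.5 to 968 CPM among old libraries, the widest spread of the genes named here for this list. Of 16 steroid synthesis genes 1 was up-regulated (6.25%, beside 1.77% of all genes). This was Star, which carries cholesterol into mitochondria (log2 1.501 ± 0.39, adjusted p = 0.0213). Its high values came from Old1_2, at 10.9, 23.2 and 109 CPM, against 3.18, 6.84 and 10.5 CPM in Old3. Without Old1_2 its log2 fold change was -0.41. Cyp11a1, the side-chain cleavage enzyme, ranged from 0 to 122 CPM and from 0.927 to 464 CPM (adjusted p = 0.0663), and was called without Young1 and without Old3. Aromatase, Cyp19a1, had medians of 156 and 154 CPM. Other lists were cholesterol synthesis (21 genes), glycolysis (16), antioxidant enzymes (25), extracellular matrix (30), core histones (64), mitochondrially encoded genes (37) and the nuclear-encoded respiratory chain (80). They held 0 DEGs, beside 3.96% of all genes tested, with medians from -0.15 to 0.13. Among them Ldha, lactate dehydrogenase, had a log2 fold change of 0.18, the superoxide dismutases Sod1 and Sod2 -0.21 and 0.05, and the matrix protein Sparc -0.24, all with adjusted p-values over 0.05.

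**Figure D2:**
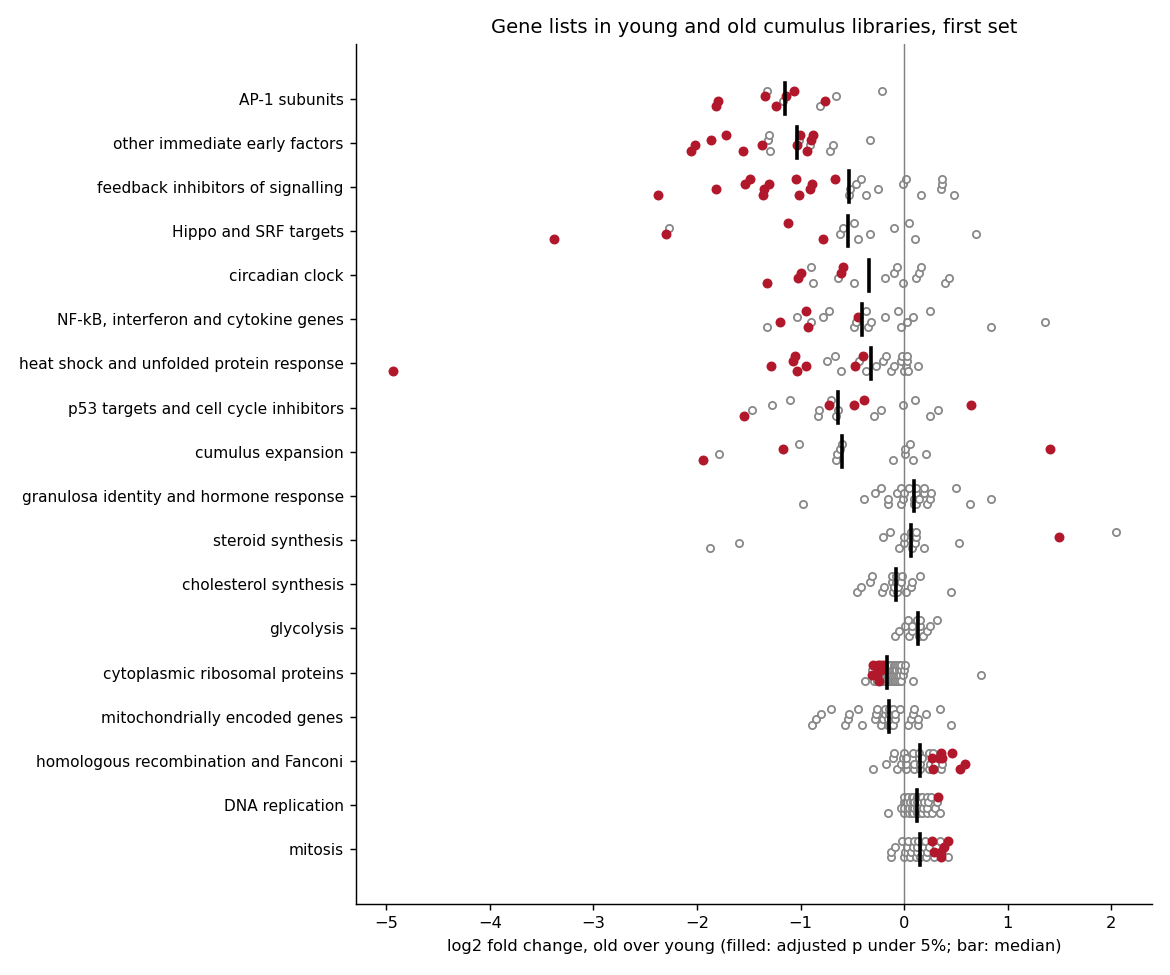
Log2 fold change of old over young cumulus cells (horizontal axis) for the tested members of 18 gene lists (rows); filled points are DEGs, open points are other members, and bars are list medians. The AP-1 and other immediate early lists lie under 0 throughout, with medians of -1.15 and -1.04, and the recombination and mitosis lists have medians of 0.16 each (the fitted value of Chac1, at the far left, depends on a group under the floor).

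Small increases recurred in genes of DNA repair and mitosis, which dividing granulosa cells transcribe. Of 34 genes of homologous recombination and the Fanconi pathway, 8 were up-regulated and 0 down-regulated, with log2 fold changes of 0.27 to 0.59 among them and a median of 0.16 over the list. This is 23.5% of the list, beside 1.77% of all genes. Brca2, a mediator of homologous recombination, was at 83.3, 104 and 154 CPM in young and at 101, 141 and 163 CPM in old libraries (log2 0.34 ± 0.08, adjusted p = 0.00943). Palb2, the partner of BRCA2 (log2 0.59), Xrcc3, which acts in the same repair (0.54), and Rad50 of the end-binding MRN complex (0.35) rose too. Brca1 had medians of 123 and 128 CPM, and Atm, the kinase that answers double-strand breaks, did not pass (log2 0.28 ± 0.11, adjusted p = 0.167). The list held 5, 0, 0 and 3 up-regulated genes without Young1, Young2, Old1_2 and Old3. Elsewhere in repair, 2 of 36 genes rose (5.56%), the exonuclease Exo1 (log2 0.38) and the DNA-dependent kinase Prkdc (0.33). In replication 1 of 41 rose (2.44%, near the 1.77% of all genes), the polymerase Pole (0.32). Without Young2 and without Old1_2, 0 genes of these lists passed.

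Of 33 mitosis genes, 6 were up-regulated (18.2%, beside 1.77% of all genes, with a median log2 of 0.16). Mki67, a coat protein of mitotic chromosomes used as a marker of cycling cells, was at 362, 586 and 684 CPM in young and 509, 734 and 872 CPM in old libraries (log2 0.36 ± 0.08, adjusted p = 0.00461). The kinetochore proteins Cenpf (log2 0.35), Cenpe (0.29) and Nuf2 (0.42) and the midzone motor Kif23 (0.38) rose with it, whereas Top2a, the topoisomerase of the same phase (0.10, adjusted p = 0.484), and Ccnb1, mitotic cyclin B1 (0.13, adjusted p = 0.598), did not pass. The list held 5, 0, 4 and 1 up-regulated genes without Young1, Young2, Old1_2 and Old3. In the second set of mice, 0 of the 33 mitosis genes (median log2 -0.02) and 0 of the 34 recombination genes (median 0.09) were called at 14 against 2 months, and the test of the difference between the sets, described below, called 0 genes of either list. In the opposite direction, 10 of 86 cytoplasmic ribosomal protein genes (11.6%, beside 2.19% of all genes) fell slightly, by 0.20 to 0.31 on the log2 scale. Of the 86, 83 were negative (median -0.16). Rps16 had medians of 169 and 141 CPM and Rpl23a 137 and 107 CPM. Of 39 proteasome genes 1 (2.56%, near the 2.19% of all genes), the subunit Psmb4, fell (log2 -0.26). Without Young1, Young2, Old1_2 and Old3, 5, 1, 1 and 3 ribosomal protein genes were down-regulated. The exons span 13643 bases for Brca2, 10061 for Mki67 and 15433 for Cenpf but 2750 for Xrcc3 among the genes that rose, and 1266 bases for Rps16 and 847 for Rpl23a among those that fell. The part of transcript length in these values was not tested.

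Among the largest increases were those of a cluster of multicopy genes on the X chromosome that contains Luzp4, a leucine zipper gene, and Ott, ovary testis transcribed. The study names 4 of its genes for this comparison, Luzp4, Gm15093, Gm15109 and Gm15127, which it chose on these same libraries, and the 4 span chrX:148290866-149305003 of GRCm38. Their direction is therefore not independent evidence. The table holds 24 genes in that interval, of which 17 were tested and 14 were called. Young libraries were near 0 here, so that genes passed the filter on low counts through the old libraries, and this count is a description only. Called genes continued on either side, 27 in all between Gm15128 and Gm15091 (chrX:147765991-149984982), 6.62% of the 408 up-regulated DEGs. Of their nonzero counts 96.0% were not whole, since reads that map to several genes were shared among them, and no gene can be singled out as the source. The likeness of some members is shown by promoters in RefSeq (GRCm38.p6, all on the plus strand, 5′ to 3′), of which Luzp4 (chrX:148882326-148882625), Ott (chrX:149097702-149098001) and Gm15107 (chrX:148180474-148180773) are printed here with capitals at the positions that differ from Luzp4.
Luzp4: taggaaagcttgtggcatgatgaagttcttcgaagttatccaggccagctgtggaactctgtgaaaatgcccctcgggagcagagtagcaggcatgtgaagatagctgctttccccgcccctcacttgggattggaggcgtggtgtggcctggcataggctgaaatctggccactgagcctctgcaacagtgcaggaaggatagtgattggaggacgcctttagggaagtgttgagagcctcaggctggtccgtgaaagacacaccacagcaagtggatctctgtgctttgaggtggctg
Ott: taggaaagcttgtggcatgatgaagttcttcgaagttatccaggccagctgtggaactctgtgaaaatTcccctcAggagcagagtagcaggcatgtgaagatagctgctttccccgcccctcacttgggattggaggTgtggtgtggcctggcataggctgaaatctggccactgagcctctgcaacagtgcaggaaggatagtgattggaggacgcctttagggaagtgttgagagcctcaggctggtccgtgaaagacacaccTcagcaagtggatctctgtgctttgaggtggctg
Gm15107: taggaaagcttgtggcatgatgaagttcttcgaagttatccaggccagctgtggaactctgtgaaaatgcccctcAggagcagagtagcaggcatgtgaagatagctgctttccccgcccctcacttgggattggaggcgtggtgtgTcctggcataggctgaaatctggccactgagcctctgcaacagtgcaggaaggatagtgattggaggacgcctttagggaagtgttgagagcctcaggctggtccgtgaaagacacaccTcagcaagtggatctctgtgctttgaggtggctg
Of 300 bases, Ott shared 296 with Luzp4, Gm15107 297, and Gm15091, Gm15085 and Gm15080 296, 295 and 294. For Gm15127, Gm10439, Gm15097, Gm15093 and Gm15114 the count was 69 to 87 bases, position by position with no shift allowed. Such a count does not measure likeness where a promoter is displaced. Those of Gm15127, Gm10439 and Gm15097 open with a stretch that stands further along in that of Luzp4. Likeness was not measured with shifts or beyond these promoters.

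Summed over the 24 genes of the interval, young libraries held 0 to 2 counts each, 0 in 9 of 15, and 6.1 counts in all. Their CPM ran from 0 to 1.75. Old libraries ran from 5.21 to 60.0 CPM (median 39.7), and none was at 0. Young and old libraries did not overlap, and pooled they stood at 0.335 and 36.8 CPM. Both old labels were high, with medians of 45.1 CPM in Old1_2 and 37.6 CPM in Old3, and both young labels were low, at 0 in the 3 libraries of Young1 and up to 1.75 CPM in Young2. At 17 of the 27 called genes the young libraries were all at or under 3 counts and an old library was above, and for these the old level was at least 6.73-fold to at least 50.01-fold that of 3 counts over the young group (median bound 17.03). At the other 10, both groups were at or under 3 counts per library, and no fold is given. Luzp4 (ENSMUSG00000079387) reached 11.6 CPM in old libraries and 0.375 CPM in young ones, at least 45.7-fold higher. Gm15127 was at least 50.01-fold, Gm10439 at least 47.98-fold, Gm15109 at least 17.1-fold, Gm15093 at least 17.03-fold and Ott at least 17.9-fold higher. Without Young1, Young2, Old1_2 and Old3, 22, 2, 17 and 21 of the 27 genes were called.

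The cluster was also read at the other ages, from the CPM of the same 24 genes. Middle libraries of the first set, at 9 months, ran from 4.601 to 43.4 CPM (median 21.3, n = 16). In the second set, libraries were at 0 to 2.26 CPM at 2 months (median 0.13, n = 24), 0 to 11.4 CPM at 4 months (median 1.53, n = 40), 0 to 50.5 CPM at 9 months (median 15.003, n = 16) and 7.05 to 71.2 CPM at 14 months (median 21.2, n = 16). Means of single mice were 0 to 0.985 CPM at 2 months (5 mice), 1.54 to 7.69 CPM at 4 months (8), 10.8 to 28.05 CPM at 9 months (4) and 14.35 to 31.1 CPM at 14 months (5), so the mice at 9 and 14 months overlapped, while those at 2 months lay under all the others.

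**Figure D3:**
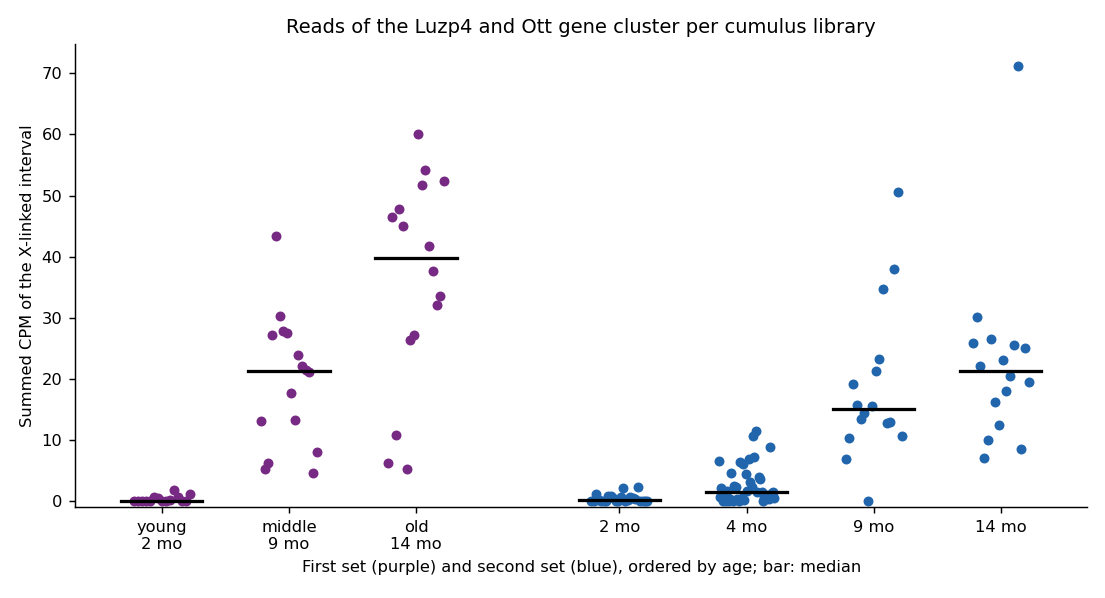
Summed CPM of the 24 genes of the X-linked interval (vertical axis) in each cumulus library by age (horizontal axis), first set in purple and second set in blue; points are libraries and bars are medians. Young and 2-month libraries lie at or under 2.26 CPM, and old and 14-month libraries lie at 5.21 to 71.2 CPM.

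Outside these groups, the 10 largest increases and decreases among DEGs of at least 8 CPM included genes that changed in both old labels and genes that were high in 1 label. AC149090.1 (ENSMUSG00000095041, on the unplaced scaffold JH584304.1 from 52190 to 59690) was at 29.5, 43.4 and 62.4 CPM in young and 66.6, 112 and 183 CPM in old libraries, without overlap (log2 1.32 ± 0.12, adjusted p = 1.07e-08). Sfi1, a centrosomal protein with centrin-binding repeats, went from 10.05, 15.4 and 24.5 CPM to 15.95, 37.5 and 74.0 CPM (log2 1.38 ± 0.17, adjusted p = 3.11e-06). Tia1, an RNA-binding protein of stress granules, went from 49.95, 84.96 and 114 CPM to 92.4, 134 and 218 CPM (log2 0.76 ± 0.11, adjusted p = 5.68e-05), with a little overlap of the groups. Without Young2 these 3 genes kept log2 fold changes of 0.97, 0.96 and 0.97, with adjusted p-values of 0.072, 0.26 and 0.075. Stc1, the hormone stanniocalcin, was higher in both old labels, with medians of 3.76 and 10.98 CPM in young and old libraries (log2 1.86 ± 0.50, adjusted p = 0.027), but did not pass with the mouse label as a random block (limma voom, adjusted p = 0.173). The RNA genes Gm45060 (log2 1.45), Gm2044 (1.40) and Gm36936 (1.18) rose as well. Whether counting used strand is not given in the sources used here, so values of RNA genes that overlap another gene are uncertain.

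Mid1, an X-linked ubiquitin ligase of microtubules whose gene crosses the pseudoautosomal boundary in mice, had the largest fold change of the DEGs above 8 CPM whose young counts exceeded the floor (log2 4.16 ± 0.51, adjusted p = 3.11e-06). It was at 49.2, 87.1 and 103 CPM in the 11 libraries of Old1_2, and at 1.62 to 4.93 CPM in the 5 of Old3, within reach of the 0 to 4.39 CPM of all young libraries. Its pseudogene Mid1-ps1, which shares sequence with it, was at 19.5 to 36.2 CPM in Old1_2 and 0.636 to 1.75 CPM in Old3, against at most 1.33 CPM in young libraries. The pooled old libraries stood 31.6-fold above the pooled young ones, through Old1_2. Leaving Old1_2 out brought Mid1 to a log2 fold change of 0.05 (adjusted p = 0.976). The high values were those of 1 label, which joins 2 of the 3 old mice, while Old3, of the same age, had none of them. For Mid1 the log2 change in the first set minus that in the second was 4.25. What sets Old1_2 apart was not tested. Sfrp4, a secreted inhibitor of WNT signalling that rises in luteinised granulosa cells, was likewise at up to 247 CPM in Old1_2 but at 0 to 8.96 CPM in Old3 (log2 2.36, and -0.34 without Old1_2), and with Star it is 1 of the 3 luteal markers that were called.

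Among the largest decreases that are no immediate early genes, Prdm1, a transcriptional repressor, went from 0.923, 9.47 and 52.0 CPM to 0, 1.70 and 9.89 CPM (log2 -2.56 ± 0.47, adjusted p = 0.000759). Dynap, a membrane protein, went from a median of 22.5 to 1.10 CPM (log2 -2.46 ± 0.46, adjusted p = 0.000942), and Eya4, a phosphatase and transcriptional co-activator, from 16.6 to 1.11 CPM (log2 -1.95 ± 0.48, adjusted p = 0.0147). Gm47283, which the annotation places on the Y chromosome although all mice were female, went from 23.002 to 5.41 CPM (log2 -1.85 ± 0.23, adjusted p = 3.73e-06). It lies beside Mid1-ps1 in the pseudoautosomal part, which both sex chromosomes carry, and was at 7.14 CPM on average in middle mice. Sat1, the rate-limiting enzyme of polyamine breakdown, went from 10.1, 22.3 and 41.2 CPM to 4.03, 7.97 and 14.9 CPM (log2 -1.34 ± 0.19, adjusted p = 1.98e-05), and was called without each of the labels. Without Young2, the log2 fold changes of Prdm1, Dynap and Eya4 were -1.77, -1.56 and -2.61, with adjusted p-values of 0.29, 0.50 and 0.17.

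The second set offered the same ages in other mice, with 24 cumulus libraries at 2 months and 16 at 14 months and 510029 to 1147286 counts each. There, 388 of 22862 genes were called (1.7%), 212 higher (0.927%) and 176 lower (0.77%) at 14 months. With each of its mice left out in turn, 210 to 445 genes were called, 210 without the mouse labelled 2mo34 and 222, 230 and 243 without 14mo41, 14mo40 and 14mo37. In both sets 63 genes were called in the same direction, 38 higher and 25 lower, which is 6.89% of the DEGs of the first set and 16.2% of those of the second. Of the 38, 20 are genes of the X-linked cluster, whose reads were shared and which passed the filter through the old libraries. They count a single locus many times, here and among the up-regulated DEGs of like sign. The sign was the same at 280 of 382 up-regulated DEGs tested in both (73.3%, beside 57.3% of all genes higher in the first set) and at 340 of 499 down-regulated ones (68.1%, beside 56.2%). Over 10441 genes of at least 8 CPM, the fold changes of the sets had a Pearson r of 0.25, a description across genes that are not independent replicates. Another 3 genes were called in opposite directions, Gm37653, the stress-induced Nupr1 and the splicing factor Prpf38b, lower in old cells of the first set and higher at 14 months in the second. These 3 were named after their values were seen.

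**Figure D4:**
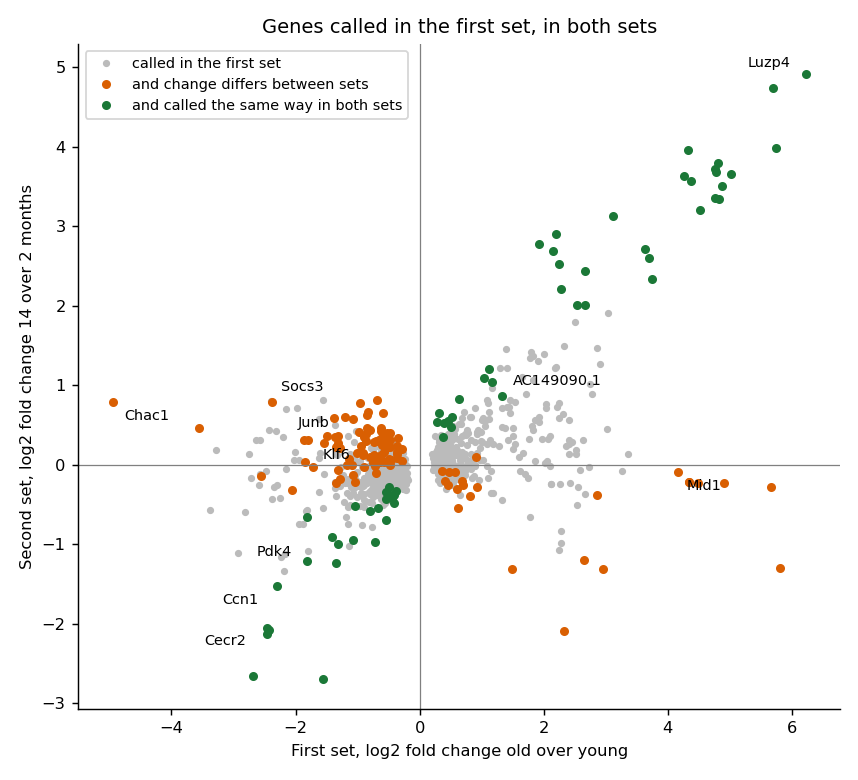
Log2 fold change of the first-set DEGs in the first set (old over young, horizontal axis) and in the second set (14 over 2 months, vertical axis); points are genes, orange where the change differed between the sets and green where it was called the same way in both. Klf6, Junb and Socs3 lie far left but at -0.02, 0.32 and 0.79 on the vertical axis, whereas the X-linked genes lie at the upper right (fitted values of genes under the floor in a group are no bounds).

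The change of the immediate early genes differed between the sets at 12 members. Their median log2 fold change was -1.01 in the first and -0.15 in the second set, where 3 were called lower and 1 higher. Summed, they took 4510 to 16654 CPM at 2 months (median 10360) and 6228 to 16066 CPM at 14 months (median 9560), and the groups overlapped. Medians at 4 and 9 months of the second set were 11484 and 7384 CPM, and that of middle mice in the first set was 3341 CPM, under that of old mice. The test of the difference between the sets called 207 of 25541 genes (0.81%), 74 with a higher change in the first set (0.29%) and 133 with a lower one (0.521%). The 12 immediate early genes called all had the lower change in the first set. Klf6 did not differ between 2 and 14 months in the second set beyond its error (log2 -0.02 ± 0.16), and its difference between sets was -1.69 ± 0.28 (adjusted p = 0.000337). Zfp36 (log2 0.27 in the second set, difference adjusted p = 0.00393), Junb (0.32, adjusted p = 0.00347) and Socs3 (0.79, adjusted p = 0.000412) differed likewise. So did Atf4 (log2 -0.13 in the second set, difference adjusted p = 0.00263), Irf1 (0.60, adjusted p = 0.00055), Sat1 (0.22, adjusted p = 0.000356) and Skil (0.04, adjusted p = 0.0374). Fosb, Per1 and Adamts1 did not pass this test (adjusted p = 0.21, 0.106 and 0.115). Without Young1, Young2, Old1_2 and Old3, 134, 58, 36 and 169 genes passed it. Mice and sets cannot be told apart in this difference.

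Several genes were called in both sets. Besides the X-linked cluster they included AC149090.1, at 67.4 CPM at 2 and 123 CPM at 14 months on average (log2 0.87 ± 0.14, adjusted p = 0.000177). Pdk4, the kinase that shuts off pyruvate dehydrogenase (ENSMUSG00000019577, chr6:5483351-5496309), was at 38.9, 71.1 and 146 CPM in young and 5.10, 19.6 and 75.0 CPM in old libraries (log2 -1.81 ± 0.26, adjusted p = 2.59e-05), and at means of 81.0 and 34.8 CPM at 2 and 14 months (log2 -1.21 ± 0.23, adjusted p = 0.00148). Tob2, an anti-proliferative protein that promotes deadenylation of mRNA, had log2 fold changes of -1.41 and -0.90, the chromatin protein Cecr2 -2.43 and -2.08, Dock8, an activator of CDC42, -1.36 and -1.24, and Hsd17b11, a hydroxysteroid dehydrogenase of lipid droplets, -1.08 and -0.95. The gap junction gene Gjc1, which encodes connexin 45, fell by 1.56 and 2.69, and Ccn1 by 2.30 and 1.52. Phf13, Ypel2 and Fhdc1 fell by 0.67, 0.54 and 0.55 in the first and by 0.54, 0.44 and 0.69 in the second set. The direction of Dock8 in the first set rested on Young2, without which its log2 fold change was 0.29, and that of Pdk4 was -0.86 (adjusted p = 0.48).

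**Figure D5:**
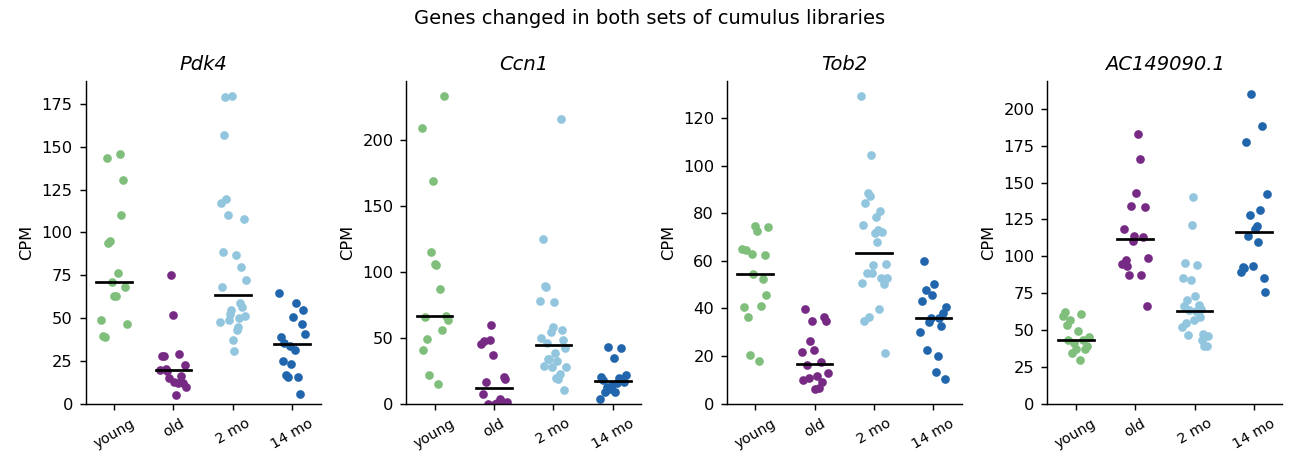
CPM of Pdk4, Ccn1, Tob2 and AC149090.1 (vertical axis, 1 panel per gene) in each young, old, 2-month and 14-month cumulus library; points are libraries and bars are medians. Pdk4 has a median of 71.1 CPM in young and 19.6 CPM in old libraries, and AC149090.1 of 43.4 and 112 CPM.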

How the data were processed

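Cumulus cell pools of single oocyte-cumulus complexes were lysed and sequenced by RamDA-seq without molecular identifiers. Per the submitters' processing notes and the study's methods, the authors mapped reads to GRCm38 with HISAT2 2.0.5 and assigned them to the genes of GENCODE vM15 by featureCounts 1.5.1, multi-mapped reads included, and deposited 1 expected count per gene and library, 35.3% of the nonzero ones not whole. The authors also deposited RPKM values calculated from counts and gene length, used here to compare levels between genes. Symbols and GRCm38 coordinates were taken from GENCODE vM21, which held 43512 of 43633 gene identifiers. Promoters came from the RefSeq table of GRCm38.p6. Whether counting used strand is not given in the sources used here. No pair of libraries was a duplicate.

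Counts were rounded to whole numbers, filtered to genes counted in 5 or more of the libraries compared, normalised by TMM and tested in R 4.3.3 with edgeR 4.0.16 (quasi-likelihood test, Benjamini-Hochberg, false discovery rate 5%). The difference between sets was an interaction term in 1 fit over the 4 groups. The steps were tested on simulated libraries drawn independently, with no difference between mice. This cannot show how the calls fare with so few mice. Tried besides were RLE size factors, DESeq2 1.42.0, the likelihood ratio test of edgeR, filterByExpr, no filter, all cumulus groups of the first set in 1 fit, counts summed per mouse label, limma 3.58.1 (voom) with the label as a random block, no mitochondrial genes, the complex number as a block, and each mouse label left out. Library measures were tested by permutation (two-sided, 100000 resamples) and exactly over labels, in Python 3.11.15 with numpy 2.4.6 and pandas 2.3.3.

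Members and gene lists were chosen with earlier results of these data known, and the design had assumed whole counts. Named are the 10 largest increases and decreases among DEGs of at least 8 CPM, the core genes and up to 4 further DEGs of each list, the 10 genes per direction most firmly called in both sets, genes the study names for the comparison, and 6 genes whose change differed most between the sets. Not every gene the rule allows is described. For a group at or under 3 counts in each library, the fold is given against its pooled counts. Where these were under 3 they were raised to 3, and the fold is a lower bound. Floors cover counting error only. Standard errors were derived from the log2 fold change and the F statistic of the quasi-likelihood test. They hold the spread between libraries but not that between mice. Columns of the RPKM tables and oocyte libraries were not tested.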

Additional observations from a re-analysis of the deposited data

Results flagged for a closer look

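The test of the difference between the first and the second set of mice called 207 genes, and those among them that the text names are given here as the log2 change in the first set minus that in the second. The value was -2.11 for Junb, -1.11 for Fosl2 and -1.20 for Mafk among the AP-1 subunits. It was -1.73 for Nr4a1, -1.69 for Klf6 and -2.16 for Csrnp1 among the other immediate early factors. Among feedback inhibitors it was -1.80 for Zfp36, -1.57 for Sik1, -3.15 for Socs3, -1.84 for Dusp6 and -1.70 for Nfkbiz. The clock repressors Nfil3, Cry1 and Cry2 had -1.25, -0.95 and -0.84, and the SMAD co-repressor Skil -0.61. In the stress responses it was -0.93 for Atf4, -1.17 for Ddit3, -1.10 for Ppp1r15a and -0.81 for Herpud1, and -5.57 for Chac1, a fitted value that depends on a group under the floor. Irf1 had -1.79, Sat1 -1.55 and Prdm1 -2.40. The genes called in opposite directions, Nupr1, Prpf38b and Gm37653, had -1.73, -0.67 and -1.50. Mid1 and Mid1-ps1 had 4.25 and 5.11, the latter again against a group under the floor, and both were high in the label Old1_2. Without it Mid1 had a log2 fold change of 0.05 in the first set. Without Young1, Young2, Old1_2 and Old3 the number of genes was 134, 58, 36 and 169.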

How the results depend on the processing

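DESeq2, the likelihood ratio test, RLE size factors, filterByExpr, no filter, no mitochondrial genes and limma voom with the mouse label as a random block gave 782 to 1132 DEGs, within 1.5 times the 914 reported. With all cumulus groups of the first set in 1 fit there were 458 (162 higher, 296 lower), and with counts summed per mouse label 81 (20 higher, 61 lower). Leaving out a mouse label gave 41 to 686 DEGs, 13 to 280 higher and 28 to 406 lower, with the fewest without Young2. With labels left out, the log2 fold change ran from -0.41 to 1.91 for Star and from -0.34 to 2.83 for Sfrp4, negative without Old1_2, and from -0.88 to 0.10 for Sesn2 and -1.58 to 0.29 for Dock8, positive without Young2. Over all alternatives, 1258 values of named genes kept direction and call, 328 lost the call, 22 gained it and 4 reversed, most of the losses with labels left out or summed. The difference in genes detected was 813 with 1 mean per label (exact p = 0.333), and that in mitochondrial share ranged from -2.06 to -0.37 percentage points with labels left out. With the mouse label as a random block, 9 of 117 named genes lost their call, Runx2, Hes1, Star, Sesn2, Mid1, Sfrp4, Stc1, Gm37653 and Zp3. The correlation fitted between libraries of a label was -0.0035, so this fit treated libraries nearly as independent. Its 979 DEGs therefore do not allow for the spread between mice. In the second set, sums per mouse gave 30 genes (12 higher, 18 lower), and leaving out a mouse 210 to 445 (104 to 250 higher, 94 to 210 lower). The difference between sets gave 36 to 169 genes (14 to 49 higher, 22 to 120 lower) with labels left out, and DESeq2 gave 209 lower. Except where fewer samples or units remained, the cause was not tested. Genes under 3 counts in a group allow bounds only at this depth.

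Young and old complexes share numbers in their labels. With the complex number as a replicate block, 634 genes were DEGs (249 higher, 385 lower). Over 15 pairs of libraries with the same number, the correlation of deviations from the group means ran from -0.31 to 0.58 (median 0.04, beside 0.04 for other pairs, and 7 of 15 above 0.1), so the numbers do not pair the samples.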
